A study of Mus musculus with 6 samples.

Results

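The ZIC genes encode transcription factors with a run of C2H2 zinc fingers, named after the cerebellum in which the first was found. Here 4 of them were followed, Zic1, Zic2, Zic4 and Zic5, in mouse embryonic stem cells and in the epiblast-like cells made from them. The members were the rows of the deposited count table whose Ensembl identifier belongs to these symbols on GRCm38, 4 of 51826 genes. Epiblast-like cells (EpiLC) were wild-type V6.5 cells on day 3 after LIF and 2i had been taken away. Embryonic stem cells (ESC) were wild-type V6.5 cells kept in LIF, a cytokine that activates STAT3, and in 2i, a pair of inhibitors of GSK3 and MEK. Both states were grown in Knockout DMEM containing fetal bovine serum at 15%, and both came from 1 line, so the comparison describes V6.5 cells. Each state had 3 libraries of total RNA depleted of ribosomal RNA, and nothing in the labels says whether they came from separate cultures, so p-values measure the spread between these libraries, which may be technical.

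ZIC factors bind DNA through zinc fingers closely related to those of the GLI factors, the effectors of hedgehog signalling, and can act as activators, repressors or cofactors. In mouse embryos they are known for roles in neural tube closure, neural crest, the dorsal brain and the left-right axis. Zic2 is also transcribed in the early epiblast and is bound at enhancers in embryonic stem cells, and human ZIC2 is a gene of holoprosencephaly. The mouse genes sit as divergent pairs, Zic2 with Zic5 and Zic1 with Zic4, the members of a pair transcribed in opposite directions.

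Zic2 (ENSMUSG00000061524) lies at chr14:122475435-122479852 on the plus strand of GRCm38, and Zic5 (ENSMUSG00000041703) at chr14:122456795-122465677 on the minus strand, with 9757 bases between them and no shared exon. Zic1 (ENSMUSG00000032368) lies at chr9:91358058-91365810 on the minus strand, and Zic4 (ENSMUSG00000036972) at chr9:91362413-91389348 on the plus strand. Their gene bodies overlap by 3398 bases, of which 60 are exonic in both genes, or 1.05% of the exonic length of Zic1. The library kit was stranded, but the strand setting of the counting is not given in the sources used here, so a read from those 60 bases could have been assigned to either gene or to neither. The gene model Gm37477 on the other strand shares 468 exonic bases with Zic4 and had 3 counts in EpiLC replicate 3 and none in the other libraries.

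The coding sequences of the 4 genes are alike in the zinc finger region, so it was checked how far a read could tell them apart. The following 60 coding bases of GENCODE M21 transcripts begin at the codon where the longest identical run of Zic1 and Zic2 starts. Capitals mark the bases that differ from Zic1.
Zic1, coding bases 724 to 783: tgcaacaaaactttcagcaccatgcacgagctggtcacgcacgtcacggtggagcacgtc
Zic2, coding bases 814 to 873: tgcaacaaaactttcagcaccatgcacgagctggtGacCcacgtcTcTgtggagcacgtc
Zic4, coding bases 451 to 510: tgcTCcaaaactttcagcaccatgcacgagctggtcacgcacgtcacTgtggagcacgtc
Zic5, coding bases 1168 to 1227: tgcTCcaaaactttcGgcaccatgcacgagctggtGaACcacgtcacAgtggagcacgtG
Zic4 differed from Zic1 at 3 of the 60 bases, Zic2 at 4 and Zic5 at 8. The longest identical coding run was 42 bases between Zic1 and Zic4, 35 between Zic1 and Zic2, and 26 between Zic2 and Zic5. Over all annotated transcripts of the 4 genes, read in the sense direction, no window of 50 bases was shared by any of the 6 pairs. That comparison did not cover the 60 exonic bases that Zic1 and Zic4 share on opposite strands. The read length is not given in the sources used here, so the comparison bears on reads of at least 50 bases.

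Library totals ran from 9710410 to 11425054 counts in EpiLC and from 11499687 to 22879812 in ESC. The naive ESC markers Klf2, Klf4, Klf5, Esrrb, Zfp42, Tfcp2l1, Nanog, Tbx3, Prdm14, Nr0b1, Dppa3 and Fgf4 summed to at most 416 CPM in any EpiLC library and to at least 3688 CPM in any ESC library, so these markers separated the 6 libraries by their labels. CPM are counts scaled to a common library total. ESC replicate 3 stood apart from its group, since the chi-square statistic divided by its degrees of freedom was 25.7 and 26.1 against ESC replicates 1 and 2, and between 2.17 and 4.11 for the other pairs within a state.

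Of the 4 members, Zic1, Zic2 and Zic5 were higher in EpiLC and Zic4 was at the limit of detection in both states. Counts were tested with edgeR's quasi-likelihood test over all 14996 genes that passed its filter on low counts, and a gene was called at a Benjamini-Hochberg adjusted p under 0.05. By this rule 3 members were called higher, 0 were called lower and 1, Zic4, had too few counts to be tested. The states differed so widely that 64.6% of all genes tested were called, 32.0% of the genes higher and 32.6% lower in EpiLC, and the members' calls are to be read against that share. A call higher in EpiLC with a fold change of at least 2 was made for 17.0% of genes, and all 3 called members were among them. Zic1 passed the filter through its EpiLC counts alone. In bulk RNA, more cells that transcribe a gene and more RNA per cell cannot be told apart.

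Zic2, a regulator of neurulation and of forebrain midline formation, was the most abundant member. It had 615, 740 and 807 counts in EpiLC replicates 1 to 3, against 337, 359 and 157 counts in ESC replicates 1 to 3. Scaled to the library totals this was 61.7, 63.3 and 72.1 CPM in EpiLC, against 17.5, 16.2 and 13.7 CPM in ESC. All EpiLC libraries lay above all ESC libraries, as for 34.9% of the genes tested, and 70.2% of genes showed no overlap in either direction. The mean was 65.7 ± 5.56 CPM in EpiLC and 15.8 ± 1.94 CPM in ESC (SD, n = 3 each). The log2 fold change, EpiLC minus ESC, was 2.05 (SE 0.11, 95% interval 1.79 to 2.30, edgeR adjusted p = 1.97e-06), a 4.14-fold higher level, and 8.04% of the genes tested had a larger log2 fold change.

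Zic5, which is the divergent partner of Zic2 and acts in neural tube and neural crest in the mouse, also rose. It had 248, 325 and 256 counts in EpiLC replicates 1 to 3, against 192, 260 and 92 counts in ESC replicates 1 to 3. In CPM these were 24.9, 27.8 and 22.9 in EpiLC, against 9.96, 11.7 and 8.01 in ESC, again without overlap between the states. The mean was 25.2 ± 2.48 CPM in EpiLC and 9.90 ± 1.85 CPM in ESC (SD, n = 3 each). The log2 fold change was 1.33 (SE 0.15, 95% interval 0.98 to 1.67, edgeR adjusted p = 0.000103), or 2.51-fold. For both genes ESC replicate 3, the library that stood apart, held the lowest level of its state, and without it the log2 fold change was 1.95 for Zic2 and 1.20 for Zic5.

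Zic1, a factor of dorsal neural tube, cerebellum and somite derivatives, was low in EpiLC and close to undetected in ESC. It had 10, 19 and 15 counts in EpiLC replicates 1 to 3, against 1, 1 and 1 count in ESC. The EpiLC libraries therefore stood at 1.0, 1.63 and 1.34 CPM, against 0.0519, 0.0451 and 0.0871 CPM in ESC, where each value is that of a single read. A count of 3, the limit that a count of 0 allows, corresponds to 0.0567 CPM over the 3 ESC libraries together. The ratio of pooled counts per scaled total was 23.6, with an exact 95% interval of 7.58 to 119 that covers counting error only. The fitted log2 fold change was 4.36 (SE 0.41, edgeR adjusted p = 8.38e-06), a value that depends on the prior count used for the 3 ESC reads.

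Zic4, the divergent partner of Zic1, had 0, 0 and 1 counts in EpiLC replicates 1 to 3 and 0, 1 and 1 counts in ESC replicates 1 to 3. Both states lay under the limit that a count of 0 allows, 0.0913 CPM over the EpiLC libraries and 0.0567 CPM over the ESC libraries, so no fold is given and a difference was not detectable at this depth. Whether the counting kept the 60 shared exonic bases out of both genes cannot be told from the table.

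**Figure D1:**
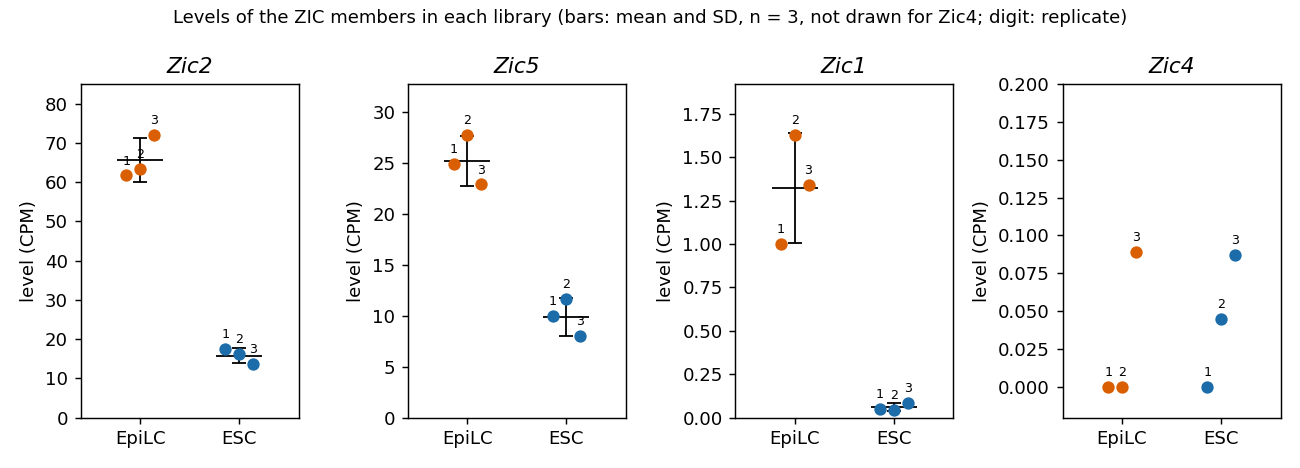
Level of each ZIC member in CPM (vertical axis, linear, own scale per panel) in the 3 EpiLC and 3 ESC libraries, each point 1 library with its replicate number, black bars the mean and SD. Zic2, Zic5 and Zic1 show EpiLC libraries above all ESC libraries, whereas the points of Zic4 are 0 or 1 read in every library.

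Divided by exonic length, levels can be ordered between genes. In EpiLC, Zic2 stood at 22.8 ± 1.93 FPKM, Zic5 at 5.15 ± 0.508 FPKM and Zic1 at 0.232 ± 0.0546 FPKM (SD, n = 3), and the ranges of these neighbours in the order did not overlap. Zic4 came last, with 0.00864 FPKM in the library that held its read. In ESC, Zic2 stood at 5.48 ± 0.672 FPKM and Zic5 at 2.02 ± 0.379 FPKM, again without overlap. Zic1 with 0.00791 to 0.0153 FPKM and Zic4 with 0 to 0.00843 FPKM overlapped there, so their order in ESC is not set. Among the 13157 protein-coding genes tested, the FPKM of Zic2 exceeded that of 83.5% of genes in EpiLC and 48.8% in ESC. For Zic5 these shares were 48.4% in EpiLC and 29.3% in ESC, and Zic1 in EpiLC exceeded 4.65%. Zic2 thus ranked among the more abundant coding transcripts in EpiLC, and Zic5 near the middle.

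Zic2 and Zic5 were both higher in EpiLC, and their balance was read from a ratio within each library, which needs no scaling between libraries. Zic5 supplied 28.7%, 30.5% and 24.1% of the joint Zic2 and Zic5 counts in EpiLC replicates 1 to 3, against 36.3%, 42.0% and 36.9% in ESC replicates 1 to 3. The highest EpiLC share had a Wilson 95% interval of 27.8% to 33.3% and the lowest ESC share one of 32.3% to 40.5%, so single libraries come close to each other while the 2 sets of 3 do not overlap. Per exonic length, Zic2 exceeded Zic5 by 3.87-fold to 5.35-fold in EpiLC libraries and by 2.34-fold to 2.98-fold in ESC libraries. The log2 ratio of Zic5 to Zic2 counts averaged -1.38 ± 0.24 in EpiLC and -0.68 ± 0.19 in ESC (SD, n = 3 each), a difference of -0.70. A two-sided exact permutation test gave p = 0.1, the smallest value that 3 against 3 libraries allow, so this design could not pass 0.05.

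**Figure D2:**
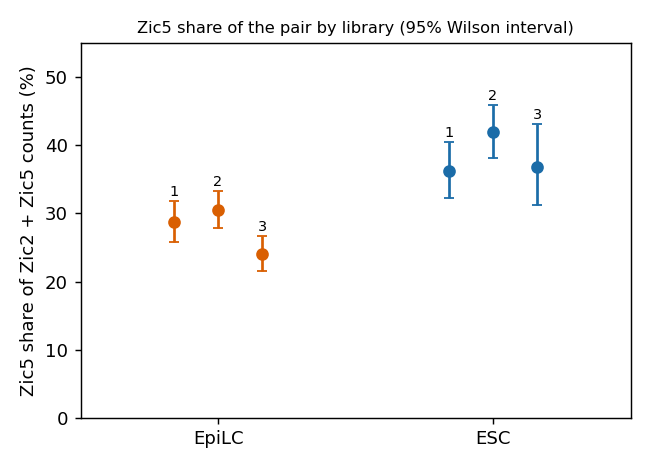
Share of Zic5 in the summed counts of Zic2 and Zic5 (vertical axis, percent) by library, with 95% Wilson intervals that cover counting error only. The EpiLC libraries lie between 24.1% and 30.5%, below the ESC libraries at 36.3% to 42.0%.

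Bases before the RefSeq transcription start were compared, since members of both pairs rose. The promoter table on GRCm38.p6 held Zic1, Zic4 and Zic5, and the windows of Zic1 and Zic5 were trimmed to end before the annotated GENCODE exons, whereas that of Zic4 was not. The windows of Zic1 and Zic5, the members with a window that were called higher, are printed as minus-strand sequence from 5′ to 3′. Capitals mark matches to the motifs searched.
Zic1, chr9:91365811-91366018: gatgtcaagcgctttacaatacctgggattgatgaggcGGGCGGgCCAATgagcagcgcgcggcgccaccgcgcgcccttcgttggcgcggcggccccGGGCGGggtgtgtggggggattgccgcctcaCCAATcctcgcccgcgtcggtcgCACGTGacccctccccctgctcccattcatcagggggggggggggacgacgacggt
Zic5, chr14:122465678-122465908: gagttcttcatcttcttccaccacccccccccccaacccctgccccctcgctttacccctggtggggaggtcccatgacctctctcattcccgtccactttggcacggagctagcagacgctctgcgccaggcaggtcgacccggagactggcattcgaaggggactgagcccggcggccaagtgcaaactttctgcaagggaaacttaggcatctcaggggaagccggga
The motifs, searched on both strands, were the letters TATAAA of a core promoter box, CCAAT of the box bound by NF-Y, GGGCGG of the box bound by SP1, CACGTG of an E-box, GACCACCCA of a GLI site and CCTGCTG of a ZIC site. No 2 of the matches shown overlap. The Zic1 window held GGGCGG at 2 places, CCAAT at 2 places and CACGTG at 1 place, and of 32544 promoter windows of the same length 26.4% held GGGCGG, 29.5% held CCAAT and 4.59% held CACGTG. The Zic5 window held none of the 6 motifs. Neither did the 250 bases before the RefSeq start of Zic4, at chr9:91368722-91368971. That window lies inside the GENCODE gene body of Zic4 given above, not upstream of it. The G and C content was 71.2% for Zic1, with a median of 51.9% over all promoters in the same window, 62.3% for Zic5 against the same median, and 44.4% for Zic4 against 52.4%. The ratio of observed to expected CpG was 0.992 for Zic1, 0.502 for Zic5 and 0.376 for Zic4, and exceeded that of 94.1%, 60% and 49.9% of promoters.

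The rise of the ZIC genes was compared with that of the genes around them. Within 1 Mb of Zic2 and Zic5, 11 other genes were tested, of which 1 was called higher and 5 lower. Over all genes tested, 32.0% were called higher and 32.6% lower. Leaving out 1 library gave 4 to 6 of these neighbours called lower. Their median log2 fold change was -0.30, against 0.01 for all genes tested. The flanking genes Clybl, which encodes a mitochondrial lyase, and Pcca, which encodes a subunit of propionyl-CoA carboxylase, lay 54.6 and 54.5 kb away. Clybl stood at 12.1 ± 1.08 CPM in EpiLC and 21.5 ± 4.54 CPM in ESC (SD, n = 3 each, log2 fold change -0.85, edgeR adjusted p = 0.00251). Pcca stood at 24.0 ± 2.15 CPM in EpiLC and 28.6 ± 0.957 CPM in ESC (log2 fold change -0.26, edgeR adjusted p = 0.0412), a call that was kept in 5 of 13 alternatives (adjusted p 0.00619 to 0.135) and lost without ESC replicate 1 or 2 or EpiLC replicate 1 or 3. Clybl, which lies on the Zic5 side of the pair, was called lower in all 13 alternatives.

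Farther out on chromosome 14, the sodium leak channel gene Nalcn, 797 kb from Zic2, was the 1 neighbour called higher, with 3.32 ± 0.734 CPM in EpiLC and 1.16 ± 0.149 CPM in ESC. The peptide transporter gene Slc15a1 fell to 1.22 ± 0.114 CPM in EpiLC, against 19.6 ± 0.786 CPM in ESC. Timm8a2 had 3 counts in EpiLC and 144 in ESC, a ratio of ESC to EpiLC of 29.8 with an exact 95% interval of 9.99 to 146. Ubac2 fell as well, by a log2 fold change of -0.53. Dock9 had 64.6 CPM in EpiLC and 64.9 CPM in ESC, and Tm9sf2, Tmtc4, Ggact and the long non-coding RNA gene A330035P11Rik were likewise not called. Without ESC replicate 3, Dock9 was called higher (log2 fold change 0.14, edgeR adjusted p = 0.0330), which gave 2 neighbours called higher. Ggact was called lower without ESC replicate 3 or EpiLC replicate 3 (adjusted p = 0.0124 and 0.0486). Near Zic1 and Zic4 only the pseudogene Gm5620 (log2 fold change 0.74) and the scramblase gene Plscr1 (-1.09) were tested, and both were called. The call of Gm5620 was lost in 8 of 13 alternatives (adjusted p 0.0232 to 0.157), among them leaving out ESC replicate 1 or 3 or any EpiLC library. The untested coding genes and the pseudogene Gm17082 were near or at 0. Gm17082 had 18 counts in EpiLC and 21 in ESC, Plscr2 had 2 in EpiLC and 25 in ESC, Gpr183 and Gm10837 had at most 2 in either state, and Gpr18, Plscr5 and 1700057G04Rik had none.

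Other transcripts close to Zic2 and Zic5 were sparse. Between the pair, the non-coding gene 2610035F20Rik, which lies 236 bases from Zic2 on the opposite strand, had 13, 4 and 11 counts in EpiLC replicates 1 to 3, against 12, 15 and 2 counts in ESC replicates 1 to 3. Its libraries overlapped between states and it was not tested. Gm5089, a gene model 5.68 kb beyond the 3′ end of Zic5, had 6, 6 and 2 counts in EpiLC, against 0, 0 and 2 counts in ESC. These counts are small beside the 2162 EpiLC and 853 ESC counts of Zic2.

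**Figure D3:**
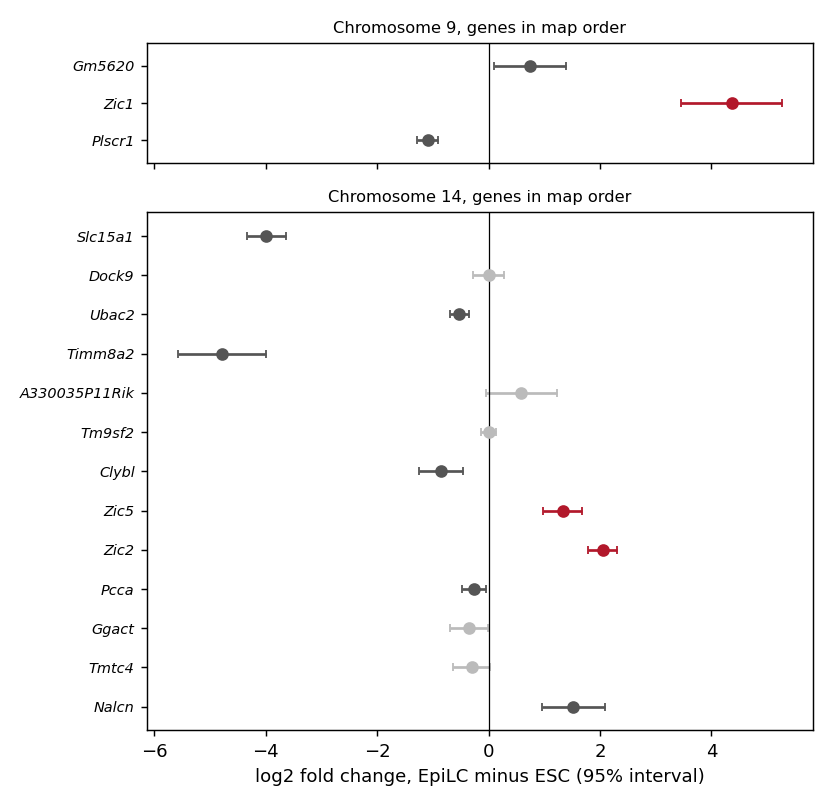
Log2 fold change, EpiLC minus ESC, with 95% interval (horizontal axis) for each tested gene within 1 Mb of a ZIC member, in map order down the page. ZIC members are red, other called genes dark grey and genes not called light grey; Zic2 and Zic5 lie at 2.05 and 1.33, between Clybl at -0.85 and Pcca at -0.26.

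The genes whose course over the 6 libraries was most like that of a member were taken by the smallest root-mean-square difference of centred log2(CPM + 0.5) values, among 12799 protein-coding genes for Zic2 and Zic5 and 12800 for Zic1. Since the libraries form 2 states, this chiefly matches the size of the difference between states. For Zic2 they were Zyx, which encodes the focal adhesion protein zyxin, the splicing regulator gene Ptbp2 and the chloride-proton exchanger gene Clcn4, at distances of 0.0702, 0.0739 and 0.0769. Ptbp2 stood at 166 ± 8.32 CPM in EpiLC and 38.3 ± 3.24 CPM in ESC. For Zic5 they were the PI3K inhibitor gene Pik3ip1, the gene model Gm45716 and the germ cell gene Topaz1, at 0.0414, 0.0761 and 0.0783. For Zic1, whose values the added 0.5 compresses, they were Slc35d3, Marveld1 and Xkr7, at 0.0708, 0.0758 and 0.0911.

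The closest zinc finger relatives of the ZIC factors, the GLI and GLIS genes, moved in both directions. Of 6 genes, 5 were tested, with 2 higher, 2 lower and 1 not called. Over all genes tested, 32.0% were called higher and 32.6% lower. The counts of this list and of the lists that follow are to be read against those shares. Gli3, which yields the main repressor of hedgehog targets, stood at 77.0, 82.6 and 83.8 CPM in EpiLC replicates 1 to 3, against 15.5, 16.6 and 18.6 CPM in ESC replicates 1 to 3 (log2 fold change 2.27, SE 0.09, edgeR adjusted p = 4.03e-07). Gli2, the main activator, fell to 11.1 ± 1.81 CPM in EpiLC, against 25.7 ± 3.43 CPM in ESC. Gli1, itself a hedgehog target, had 17, 37 and 28 counts in EpiLC replicates 1 to 3, against 193, 229 and 29 counts in ESC replicates 1 to 3, and in CPM the states overlapped through ESC replicate 3. Its call (log2 fold change -1.69, edgeR adjusted p = 0.0176) was lost without ESC replicate 2 (0.0526), EpiLC replicate 1 (0.0724) or EpiLC replicate 3 (0.0573), which left 1 gene called lower. Gli3 thus showed a fold change near that of Zic2 while Gli2 went the other way.

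Hedgehog pathway genes were called higher in 5, lower in 2 and in neither direction in 6 of 13 tested. The shares over all genes tested were 32.0% higher and 32.6% lower. The median log2 fold change was 0.51 for the list and 0.01 for all genes. Without ESC replicate 3, 7 genes of the list were called higher and 3 lower. Smo, the signal transducer, stood at 129 ± 3.96 CPM in EpiLC and 27.7 ± 1.31 CPM in ESC (log2 fold change 2.21). The ciliary inhibitor gene Gpr161 rose by 1.92 and the co-receptor gene Gas1 by 1.75 on the log2 scale. The receptor gene Ptch1, a target that hedgehog signalling induces, fell to 29.2 ± 1.27 CPM in EpiLC, against 52.0 ± 3.33 CPM in ESC. The ligand genes Shh and Ihh had means of at most 0.144 CPM in either state and were not tested. The ligand gene Dhh stood at 1.05 CPM in EpiLC and 0.679 CPM in ESC and was not called (log2 fold change 0.64, edgeR adjusted p = 0.102).

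Genes for proteins reported to bind or modify ZIC factors were, of 16 tested, higher in 5, lower in 7 and not called in 4. These counts stand beside 32.0% higher and 32.6% lower over all genes tested. The median log2 fold change of the list was -0.08. Without ESC replicate 2, 4 of these genes were called higher, and without ESC replicate 3, 7 were. Among subunits of the NuRD chromatin remodelling complex, which ZIC2 accompanies at mouse embryonic stem cell enhancers, Mta1 rose (log2 fold change 1.30), Mta2 and Hdac1 fell (-0.51 and -0.62) and Mbd3 was not called (-0.14). Chd4 was at 1056 CPM in EpiLC and 901 CPM in ESC (0.23, called). Mdfi, whose product I-mfa holds ZIC proteins in the cytoplasm, rose to 22.5 ± 1.47 CPM in EpiLC, against 9.42 ± 1.53 CPM in ESC. Of the kinase and repair factors that bind human ZIC2, Parp1 fell (-1.06), Xrcc5 and Xrcc6 fell (-1.24 and -0.45), Dhx9 rose (0.39) and Prkdc was not called (0.10). The ubiquitin ligase gene Rnf180 rose by 2.78 on the log2 scale at a low level of 2.62 CPM in EpiLC.

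The programmes in which ZIC factors are known to act were at different levels. Their counts stand beside 32.0% of genes called higher and 32.6% called lower over all genes tested. Of 14 factors of the post-implantation epiblast, 9 rose, 1 fell and 4 were not called (median log2 fold change 2.12), and Fgf5, Otx2 and Pou3f1 had the largest changes (8.57, 4.11 and 3.98). Leaving out ESC replicate 1 moved Fgf5 to 9.95, and leaving out ESC replicate 2 moved it to 7.82. The 1 lower gene, Etv4, was named after its values were seen, and leaving out ESC replicate 3 gave 2 such genes, while leaving out any other single library gave 0. Of 8 tested genes of the node, midline and left-right axis, 6 were higher, 0 lower and 2 not called by edgeR. Among the higher genes were Fgf8 (6.66) and Lefty1 (2.82, 95% interval 1.21 to 4.44). Lefty1 was uneven among the ESC libraries. Replicate 3, the library that stood apart, had 6.01 CPM, against 95.4 CPM for replicate 1 and 81.8 CPM for replicate 2. Without ESC replicate 3 the log2 fold change of Lefty1 was 2.30, and it was still called higher. Lefty2, of the same list, went the other way without being called (-0.99, edgeR adjusted p = 0.0564). Leaving out ESC replicate 3 gave 1 gene called lower. Defining genes of the node itself, Foxa2 and Noto, averaged at most 0.290 CPM in either state.

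The genes of the neural lists did not move as 1 block. Of 8 tested genes of the anterior neural plate, 4 rose, 3 fell and 1 was not called (median 0.08). Without ESC replicate 1 or 2 or EpiLC replicate 2 or 3, 3 of them were called higher. The shares over all genes tested were 32.0% higher and 32.6% lower. Pax6 stood at 9.14 ± 0.375 CPM in EpiLC and 0.198 ± 0.108 CPM in ESC, whereas Hesx1 (log2 fold change -4.31, and -5.94 without EpiLC replicate 1) and Sox2 (-3.53) fell. Sox2 stood at 37.0 ± 2.82 CPM in EpiLC and 429 ± 41.0 CPM in ESC. Whether these genes mark a neural programme in either state was not tested. Of 14 genes of the dorsal neural tube and neural crest, where Zic1, Zic2 and Zic5 act in the embryo, 7 were tested, with 3 higher, 2 lower and 2 not called. Sox10 (2.82) and Msx1 (2.51) rose, and Wnt3a had 3 counts in EpiLC and 156 in ESC, a ratio of ESC to EpiLC of 32.3 with an exact 95% interval of 10.8 to 158. Pax3, Pax7, Atoh1 and Olig3 averaged at most 0.328 CPM in either state, and Wnt1 had no count in any library.

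**Figure D4:**
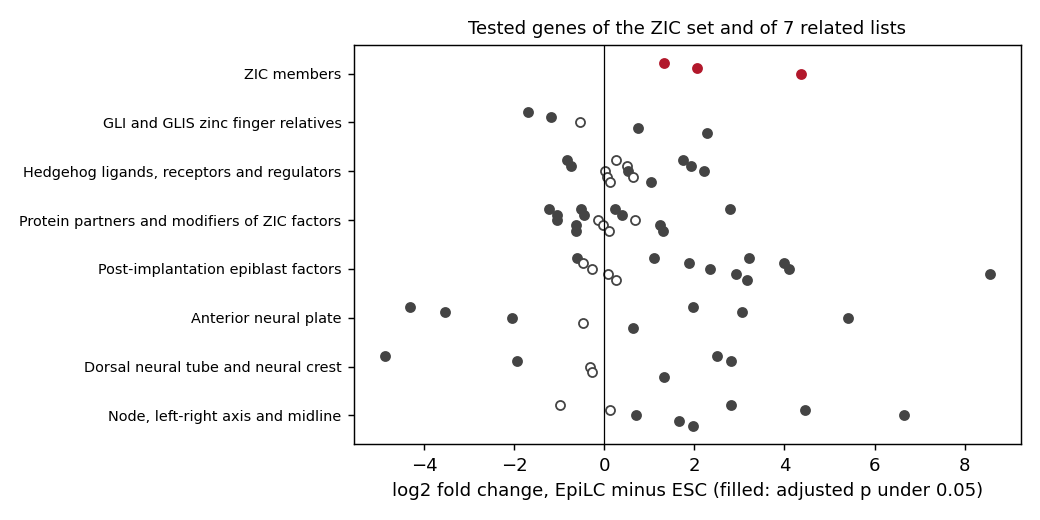
Log2 fold change, EpiLC minus ESC (horizontal axis), of each tested gene of the ZIC set and of 7 related lists (rows), filled where the adjusted p was under 0.05. The 3 tested ZIC members lie at 1.33, 2.05 and 4.36, and all lists but the ZIC set hold called genes or values on both sides of 0.

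Markers of other cell types were read beside the low Zic1 level. Their counts of calls stand beside 32.0% higher and 32.6% lower over all genes tested. Fibroblast and feeder markers summed to between 316 and 361 CPM in EpiLC libraries, against 16.3 to 19.2 CPM in ESC, with 6 of 8 tested genes higher and most of the sum in Tagln and Fbn1. Of the collagen genes, Col1a1 stood at 1.65 ± 0.654 CPM in EpiLC and 0.579 ± 0.254 CPM in ESC, and Col1a2 at 3.83 ± 0.621 CPM in EpiLC and 0.140 ± 0.0442 CPM in ESC (SD, n = 3 each), and both were called higher. Col3a1 and Col6a1 averaged 0.567 and 0.662 CPM in EpiLC, against 0.0150 and 0.112 CPM in ESC, and were not tested. Dcn, which encodes the proteoglycan decorin, had 143 counts in EpiLC and 0 in ESC, at least 76.8-fold higher against a floor of 3 counts over the ESC libraries. Acta2, which encodes smooth muscle actin, had 200 counts in EpiLC and 2 in ESC, a ratio of 161 with an exact 95% interval of 44.0 to 1340. Thy1 and Pdgfra were not called, Postn had 1 count in EpiLC and none in ESC, and Lum had none in EpiLC and 1 in ESC. Neuron and glia markers summed to between 175 and 181 CPM in EpiLC, against 250 to 391 CPM in ESC, with 6 higher, 1 lower and 2 not called of 9 tested, and 2 lower without ESC replicate 3 or EpiLC replicate 2. The synaptic gene Syt1 rose to 6.15 CPM in EpiLC, against 0.112 CPM in ESC, while Stmn2, which encodes a microtubule regulator, fell to 84.1 CPM in EpiLC, against 281 CPM in ESC. Mesoderm and endoderm markers summed to between 24.3 and 34.3 CPM in EpiLC, against 17.2 to 25.8 CPM in ESC, with 3 higher, 1 lower and 1 not called of 5 tested and Afp at 0 in every library. Without ESC replicate 3 this list had 2 lower, and without any other single library it had 2 higher. Mixl1, a factor of the primitive streak, stood at 2.45 CPM in EpiLC and 0.437 CPM in ESC, and the endoderm factor gene Sox17 had 2 counts in EpiLC and 72 in ESC. Genes of the lists that did not reach 1 CPM were named after their values were seen. The part of such cells in the Zic1 counts was not tested.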

How the data were processed

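RNA of 3 EpiLC and 3 ESC libraries was analysed from raw read counts per gene deposited by the authors. Per the submitters' processing notes the tools were cutadapt, STAR, featureCounts and DESeq2 on mm10, without versions, and per the labels' protocols about 100 ng of depleted RNA entered a stranded kit. The annotation release, the strand setting and how multi-mapping reads were treated were not given in the sources used here. Of 51826 Ensembl identifiers, 51633 matched GENCODE M21 (GRCm38), and 92 spike-in rows with 0 counts were left out.

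Counts were fitted with edgeR 4.0.16 in R 4.3.3 (glmQLFit with the legacy option off, TMM, filterByExpr at its defaults of 10 and 15 counts, group as the single term) and adjusted by Benjamini-Hochberg over 14996 genes. CPM used TMM-scaled totals of the filtered genes, and FPKM divided these by the union of annotated exons. Alternatives were upper quartile scaling, library totals, no filter, DESeq2 1.42.0, limma-voom (limma 3.58.1), a replicate block and leaving out each library. A further alternative kept library totals from before the filter. Named genes were the members, genes within 1 Mb, the 3 most alike per member, and per list up to 3 called genes with the largest change at 1 CPM or more, with other list members given as values; 1 gene that this rule named is not reported here. The members and lists were chosen with earlier results of these data known. The promoter windows, the motifs and the printed coding stretch were chosen after the data were seen, as was recomputing library totals after the filter, which left 9686 genes called either way. On simulated counts for EpiLC over ESC (14647 genes tested), 57 of 64 genes changed 2-fold and 3 of 14452 unchanged genes were called. Of genes changed 1.5-fold, 30 of 67 were called. In the simulation few genes changed and no library was made to stand apart, whereas 64.6% of genes were called in the real data. These rates therefore need not hold for the real data. Exact and Wilson intervals cover counting error only, and those of fitted log2 fold changes include the spread between libraries.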

Additional observations from a re-analysis of the deposited data

How the results depend on the processing

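Zic1, Zic2 and Zic5 were called higher in EpiLC under all 13 alternatives. Among these, keeping library totals from before the filter called 9686 genes, the same number as the main fit. It also gave the values of the main fit for Pcca and Gm5620, so within the 13 it is not separate support. Zic1 passed the filter through its EpiLC counts alone, which favours a call higher, so its repeated call is not separate support. The log2 fold change ranged from 3.94 to 4.56 for Zic1, from 1.95 to 2.12 for Zic2 and from 1.20 to 1.46 for Zic5, with adjusted p of at most 0.000296, 4.31e-05 and 0.00104. Upper quartile scaling and library totals moved the median of all genes by 0.05 and 0.07 on the log2 scale. Without a filter on low counts Zic4 was tested and not called (edgeR adjusted p = 0.885). The difference in the log2 ratio of Zic5 to Zic2 kept its sign under both other pseudocounts and without each library. Nothing in the labels says that the replicate numbers pair libraries. Deviations of same-numbered EpiLC and ESC libraries correlated at -0.102, 0.001 and -0.17, and those of differently numbered libraries at -0.164 to 0.172. With 3 libraries per state, these values cannot show whether same-numbered libraries shared an origin. With the replicate block the log2 fold changes were 4.35 for Zic1, 2.05 for Zic2 and 1.35 for Zic5, and 9231 genes were called in place of 9686. Leaving out 1 library, added after seeing that ESC replicate 3 stood apart, gave 1 to 2 GLI and GLIS genes called lower, 0 to 2 post-implantation epiblast factors called lower and 0 to 1 genes of the node and left-right axis called lower. It also gave 1 to 2 neighbours of Zic2 and Zic5 called higher, 1 to 2 neuron and glia markers called lower and 1 to 2 mesoderm and endoderm markers called lower. Called higher in the same fits were 3 to 4 anterior neural plate genes and 5 to 7 hedgehog genes. For fibroblast and feeder markers, as for neuron and glia markers, 6 to 7 were called higher. Gli1 was also not called with limma-voom (adjusted p = 0.0600). Depth limits Zic1 and Zic4 most, since each ESC count of either gene was 0 or 1.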
